A study of Arabidopsis thaliana with 18 samples.

Results

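Cotyledons of the T-DNA insertion mutant bes1-1 were compared with cotyledons of the Col wild type (WT) before any culture. The comparison was chosen by sample title: the 3 arrays titled bes1-1 at 0 h minus the 3 titled WT at 0 h, with same-numbered replicates matched because the arrays of replicate 1 lay on a lower scale. It holds 6 of the 18 arrays and was described across 16557 annotated genes, out of 38408 probe sets tested. All plants were 6 days old and had been grown in liquid MS medium at 22 °C in continuous light, so WT and bes1-1 differed, as far as the labels say, in genotype alone. The other arrays come from bes1-3, a further T-DNA insertion mutant, at 0 h, and from all 3 genotypes after 72 h of VISUAL, a culture with 2,4-D, kinetin and bikinin in which leaf cells are induced to form vascular cells. Whether replicates came from separate plants is not in the labels; the p-values therefore speak for the spread among these arrays, part or all of which may be technical.

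BES1 is a transcription factor at the end of the brassinosteroid pathway: hormone bound at the cell surface turns off GSK3-like kinases, and BES1 then accumulates in the nucleus and switches growth genes on or off. Jasmonates are oxylipin hormones that induce defence and secondary metabolism, including the anthocyanin branch of flavonoid synthesis. When oxygen is short, plants stabilise ERF transcription factors that induce a compact set of genes, among them those of ethanolic fermentation.

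BES1 itself was not analysed here, since the platform table names no member of its family among the probe sets. The deposited values were used as log2 signal. Array medians were 5.19 to 5.26 in replicate 1 and 5.91 to 6.15 in the other 4 of the 6 arrays compared, so a level is always best read against the same-numbered array. The mesophyll genes LHCB4.1, LHCB4.2 and LHCB4.3, light-harvesting proteins of photosystem II, stood at WT means of 11.17, 10.30 and 5.98. The lower quartile of the WT arrays was 3.81. The meristem gene CLV3 stood below it at 2.33 and the root hair gene EXPA7 above it at 4.19. None of 16 marker genes of mesophyll, stomata, phloem, xylem, trichome, meristem or root was called by limma in bes1-1 against WT. Over all probe sets 0.107% were called, so 16 genes were likely to hold no call. At an unadjusted p below 0.05 were 0 of the 16, where 6.24% of all probe sets were lower and 4.5% higher. Such counts do not show that cell types were equal. The differences of the 16 genes ran from -0.46 to 0.22 on the log2 scale. In whole cotyledons, fewer cells of a type and less RNA per cell cannot be told apart.

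Few genes were called in bes1-1 before culture, and most of them were lower than in WT. With the limma fit to all 18 arrays and the replicate number as a block, 41 probe sets had an adjusted p below 0.05, which is 0.107% of those tested; 35 (0.0911%) were lower and 6 (0.0156%) higher. They hold 38 distinct rows of values, since 1 row stands for 4 probe sets. Of these probe sets 19 carry a gene name, and 18 genes were called on their brightest probe set, 16 lower and 2 higher. In all 41 the bes1-1 arrays did not overlap the WT arrays and all 3 same-numbered differences had the same sign. Over all probe sets, 2.97% were lower without overlap and 13.2% were lower in all 3 replicates. The 41 were picked by a test on the same arrays, which favours both traits, so neither adds support to the calls. Among annotated genes with an unadjusted p below 0.01 and the same sign in all 3 replicates, 232 were lower and 222 higher, but 83 of the lower and 3 of the higher differed by more than 1 log2 unit. The count rests on the variance pooled with the 72 h arrays and on the block: it was 8 without the block, 4 with only the 0 h arrays and 0 with only the 6 arrays compared, where 2477 had an unadjusted p below 0.05. It also turned on single arrays, with 6 calls when WT replicate 1 or WT replicate 3 was left out, 113 when WT replicate 2 was, and 27 when bes1-1 replicate 1 was.

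**Figure D1:**
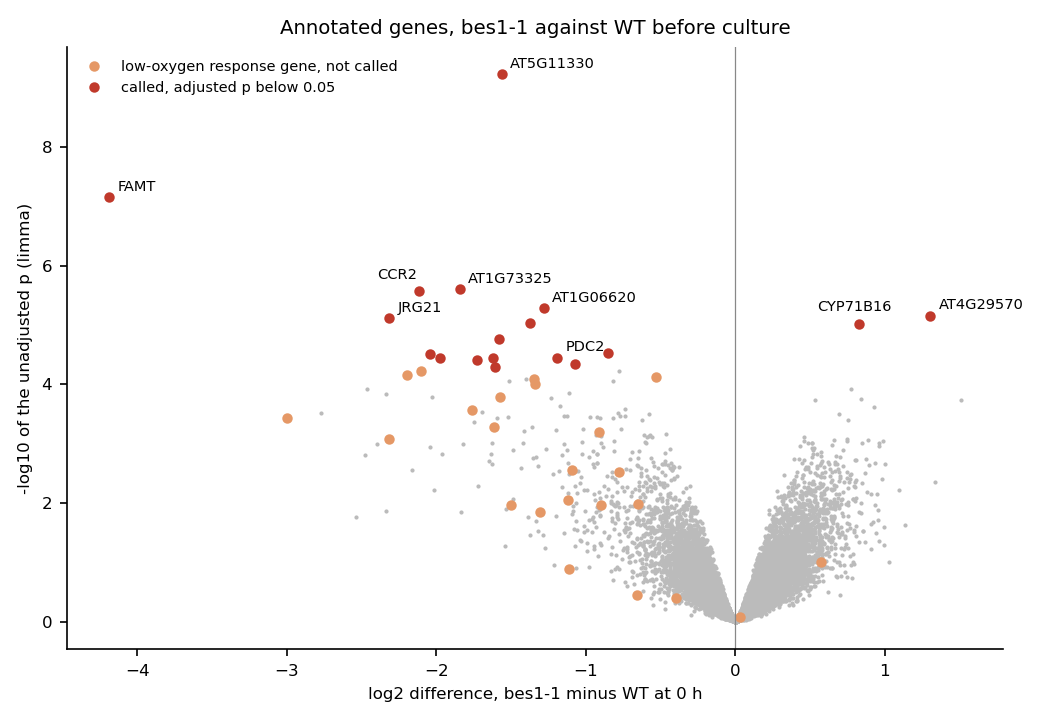
Each point is 1 annotated gene, with its log2 difference of bes1-1 minus WT at 0 h on the horizontal axis and -log10 of the unadjusted limma p on the vertical axis. Red points are the called genes, 16 to the left of 0 and 2 to the right, and orange points are low-oxygen response genes that were not called.

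The named gene with the largest called difference was FAMT, which encodes farnesoic acid carboxyl-O-methyltransferase, an enzyme of the SABATH family that methylates small acids, among them jasmonate, salicylate and, for FAMT, farnesoic acid. FAMT stood at 9.02, 9.90 and 9.88 in the WT arrays of replicates 1, 2 and 3 and at 5.10, 4.70 and 6.44 in those of bes1-1. All 3 bes1-1 arrays lay far below the WT arrays, while bes1-3 had 9.51, 8.79 and 10.53 and overlapped WT. FAMT fell by 4.19 ± 0.37 on the log2 scale, an 18.2-fold lower signal (limma, adjusted p = 0.000535, and 0.00468 without the block). Here and below, the value after ± is the SE of the blocked limma fit, with the variance pooled over all 18 arrays. It is not the spread of the 6 arrays compared, and for FAMT it was 0.505 without the block. FAMT was called in 16 of 19 alternative fits, and was not called with only the 0 h arrays, with only the 6 arrays or without replicate 1. FAMT has a close relative at the adjacent locus AT3G44870, which was dim (WT mean below the lower quartile) and stood at 0.46; whether its transcripts reach the FAMT probes was not tested. Of 21 measured SABATH genes FAMT was the only one called, where 0.107% of all probe sets were. At an unadjusted p below 0.05, 4 of the 21 were lower, FAMT included, and 3 higher. Over all probe sets 6.24% were lower and 4.5% higher at that threshold. The median difference of the family was 0.17, against 0.00 over all probe sets.

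The jasmonate gene JRG21 was lower as well. JRG21 encodes a 2-oxoglutarate-dependent oxygenase induced by jasmonate that hydroxylates and so inactivates jasmonic acid. Its signal was 5.25, 5.81 and 5.19 in WT and 3.35, 2.64 and 3.31 in bes1-1. The groups did not overlap. As the bes1-1 mean of 3.10 was under the lower quartile of its arrays (3.81), the fall may be larger or smaller than measured. JRG21 fell by 2.32 ± 0.32 (limma, adjusted p = 0.0198) and was called in 11 of 19 alternatives. FAMT and JRG21 were the only named genes called without the block.

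FAMT and JRG21 were the called members of 18 measured genes of jasmonate synthesis and response, a list that also holds jacalin-related lectins. Of the 18, 6 were lower and 1 higher at an unadjusted p below 0.05, where 6.24% of all probe sets were lower and 4.5% higher, and the median was -0.13. Of the same 18 genes, 10 were lower in all 3 replicates, where 13.2% of all probe sets were, and 5 had bes1-1 arrays entirely below the WT arrays, where 2.97% of all probe sets did. The list was chosen with FAMT, JRG21 and PDF1.2 known from earlier results of these data, which favours such counts. They are a description and not a test. The list holds the like-named PDF1.2, PDF1.2b and PDF1.2c, which may not be separate measurements. Whether their probes read each other's transcripts was not tested. The defensin genes PDF1.2 and PDF1.2b stood at -2.54 ± 0.92 and -2.34 ± 0.82 with overlapping groups and were not called (limma, adjusted p = 0.361 and 0.335). PDF1.2 was 7.85, 7.26 and 8.38 in WT and 7.53, 5.16 and 3.18 in bes1-1, so that replicate 1 hardly differed. THI2.2, a thionin gene, stood at 1.00 (0.392), and the transcription factor genes MYC3 and MYC4 at 0.06 and -0.13.

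**Figure D2:**
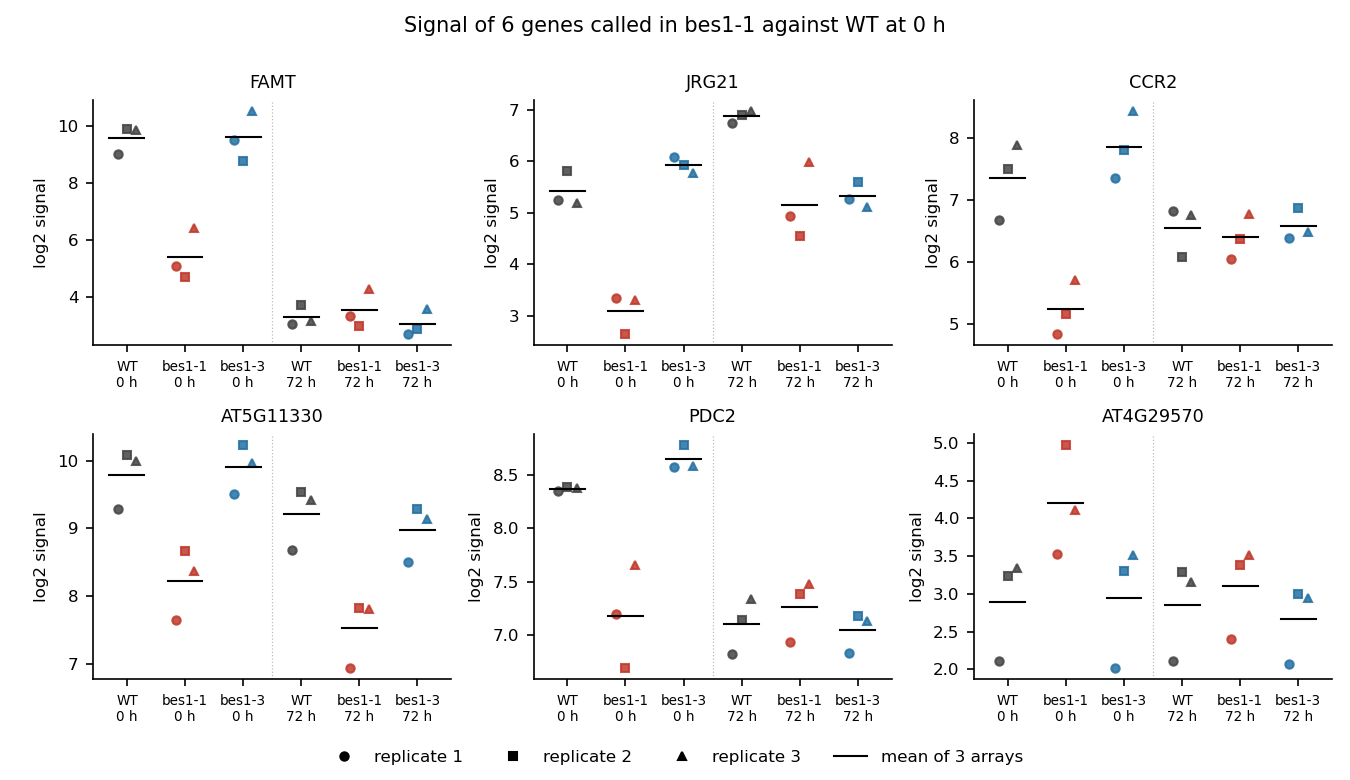
Log2 signal of 6 called genes on each of the 18 arrays, by genotype and time, with 1 symbol per replicate number and a line at the mean of 3 arrays. At 0 h the bes1-1 points of FAMT, JRG21, CCR2, AT5G11330 and PDC2 lie below all WT and bes1-3 points, and at 72 h those of AT5G11330 still do.

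CCR2 was also called lower in bes1-1. It encodes cinnamoyl-CoA reductase, which commits phenylpropanoids to monolignols, and shares its symbol with a clock gene that it is not. CCR2 measured 6.69, 7.50 and 7.89 in WT and 4.84, 5.17 and 5.71 in bes1-1, without overlap. It fell by 2.12 ± 0.26 (limma, adjusted p = 0.01; 0.11 without the block), a 4.34-fold lower signal. DFR, the dihydroflavonol reductase that opens the anthocyanin branch, showed 9.04, 7.24 and 7.75 in WT against 4.56, 6.30 and 4.86 in bes1-1. The groups did not overlap, but replicate 2 differed far less than the others, and the difference of -2.77 ± 0.56 was not called (0.103); it was called only without WT replicate 2 (0.0336). UF3GT, a flavonoid glycosyltransferase gene, stood at -1.10 ± 0.39 (0.349) and AT4G14090 at -0.72. BAN, which diverts the pathway to proanthocyanidins, stood at 0.43 from a dim level. Of the 7 measured flavonoid genes 0 were called by limma, and the median was -0.51, with medians of -0.88, 0.22 and -0.87 in replicates 1, 2 and 3. At an unadjusted p below 0.05, 3 were lower and 1 higher, where 6.24% of all probe sets were lower and 4.5% higher. DFR was known from earlier results when this list was chosen, so these counts are a description. AT1G06000 was called on 1 of its probe sets (-0.81 ± 0.13; 0.0427) and not on its brighter one (-0.99 ± 0.30; 0.268). None of 32 secondary wall and lignin genes, a list that did not include CCR2, was called by limma, where 0.107% of all probe sets were. At an unadjusted p below 0.05, 3 of them were higher and 2 lower, beside the same shares over all probe sets.

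Genes of the low-oxygen response stood lower in bes1-1 by their median, with PDC2 and AT4G24110 called. The list of 48 loci was recalled from published accounts of low-oxygen signalling after the leading genes of this comparison had been seen, so it is described and not tested. It has 25 measured members, and their median difference was -1.19 against 0.00 over all probe sets. Of these 2 were called lower, where 0.0911% of all probe sets were. At an unadjusted p below 0.05, 20 were lower and 0 higher, where 6.24% of all probe sets were lower and 4.5% higher. A total of 22 were lower in all 3 replicates, where 13.2% of all probe sets were, and 18 had bes1-1 arrays entirely below the WT arrays, where 2.97% of all probe sets did. The mean level of the list was 8.56, 8.28 and 8.41 on the WT arrays and 7.59, 6.97 and 7.03 on the bes1-1 arrays. The bes1-3 arrays stood with WT, at 8.57, 8.68 and 8.24. Under the 19 alternatives the count at an unadjusted p below 0.05 was 17 to 22 and the median -1.34 to -1.13. With only the 6 arrays compared the count was 21. The median of -1.19 could not change there, since the balanced fit takes each difference from these same 6 arrays.

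**Figure D3:**
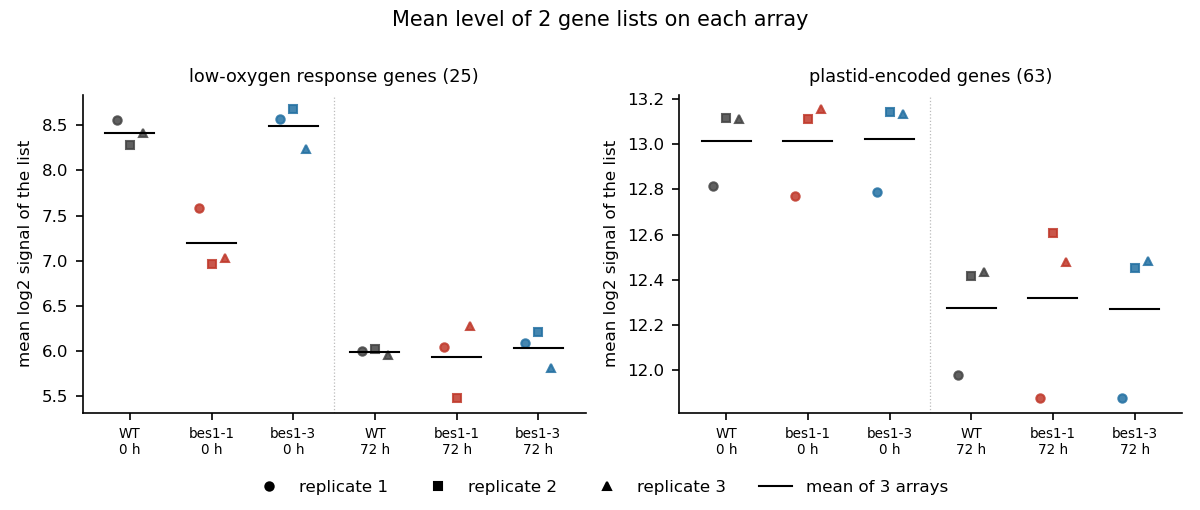
Mean log2 signal per array of 25 low-oxygen response genes (left) and 63 plastid-encoded genes (right), by genotype and time, with a line at the mean of 3 arrays. In the left panel the bes1-1 arrays at 0 h lie at 6.97 to 7.59, below the WT arrays at 8.28 to 8.56; in the right panel the genotypes overlap.

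The members of the list differ in role, from fermentation enzymes to regulators. PDC2 encodes pyruvate decarboxylase, which makes acetaldehyde for ethanolic fermentation. PDC2 stood at 8.35, 8.39 and 8.38 in WT and at 7.19, 6.69 and 7.65 in bes1-1, so the WT arrays were nearly equal and each bes1-1 array lay below them. It fell by 1.19 ± 0.19 (limma, adjusted p = 0.0427; 0.265 without the block). AT4G24110 was 7.10, 6.27 and 7.04 in WT and 5.72, 4.46 and 5.04 in bes1-1, without overlap, and fell by 1.73 ± 0.28 (0.0438; 0.221 without the block). AlaAT1, alanine aminotransferase, which stores carbon and nitrogen as alanine when oxygen is short, was among the brightest members at 12.15, 12.03 and 11.98 in WT against 11.68, 11.50 and 11.39 in bes1-1. The 3 differences of AlaAT1 were nearly equal and the value of -0.53 ± 0.09 had an adjusted p of 0.0569.

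AT5G10040 had the largest difference of the list, with 10.03, 10.25 and 9.23 in WT and 8.43, 6.76 and 5.33 in bes1-1. Its groups did not overlap, yet the spread within bes1-1 was wide and the 7.99-fold lower signal (SE 0.62 on the log2 scale) was not called (limma, adjusted p = 0.105). AT5G66985 (-2.20 ± 0.38; 0.0567) and AT1G10140 (-2.10 ± 0.35; 0.0542) lay just outside the threshold and AT2G17850 stood at -2.32 ± 0.53 (0.153). AT3G10040, listed as HYPOXIA RESPONSE ATTENUATOR1 and known as a repressor that tempers the response, stood at -1.50 ± 0.50 (0.313). CML38, a calmodulin-like calcium sensor gene, stood at -0.90 ± 0.30 (0.312). The 5 members above an unadjusted p of 0.05 were AT4G33560 (-1.11), AT4G27450 (-0.66), AT2G15880 (-0.40), AT1G19530 (0.03) and AT3G10020 (0.58).

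**Figure D4:**
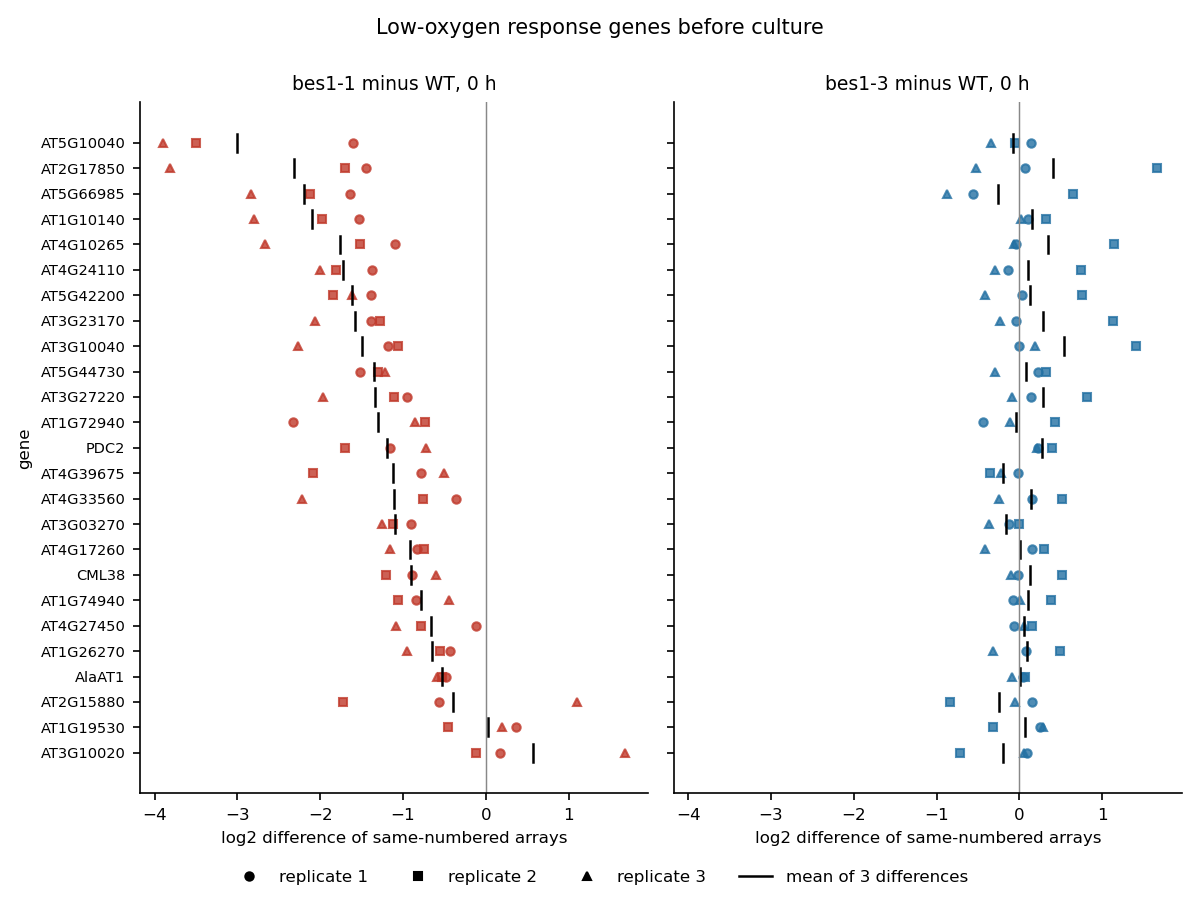
Log2 differences of same-numbered arrays at 0 h for each of 25 low-oxygen response genes, bes1-1 minus WT on the left and bes1-3 minus WT on the right, with a bar at the mean of 3. In bes1-1 the 3 points lie below 0 for 22 genes; both panels use the same WT arrays.

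A further 11 genes called lower carry a locus number and no symbol in the annotation used. AT5G11330 had the smallest adjusted p of all named genes. It stood at 9.29, 10.09 and 10.00 in WT and at 7.65, 8.66 and 8.37 in bes1-1, so each bes1-1 array was lower than the same-numbered WT array by a like amount. AT5G11330 fell by 1.56 ± 0.09 (limma, adjusted p = 7.65e-06); without the block, which takes up the lower scale of replicate 1, it was not called (0.429). AT1G73325 was 5.43, 5.68 and 6.89 in WT and 3.51, 4.33 and 4.62 in bes1-1, and fell by 1.85 ± 0.23 (0.01). AT1G24580 fell by 2.04 ± 0.32, AT4G26460 by 1.97 ± 0.32, AT2G39420 by 1.62 ± 0.26, AT2G29870 by 1.61 ± 0.27 and AT3G51450 by 1.58 ± 0.23. AT4G32480, AT1G06620, AT1G03610 and AT1G66620 fell by 1.37, 1.28, 1.08 and 0.85. The adjusted p-values of these 9 genes in limma ran from 0.0168 for AT1G06620 to 0.0481 for AT2G29870.

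Across all 18 arrays, with replicate means taken out, the named genes whose signal ran closest to FAMT were AT3G51450 (Pearson's r = 0.982), AT1G06620 (0.979) and AlaAT1 (0.973). The correlation is a description over arrays that share genotypes and times. AT3G51450 measured 6.48, 6.52 and 6.78 in WT and 5.03, 4.49 and 5.53 in bes1-1, and AT1G06620 7.82, 8.39 and 8.65 against 6.68, 6.93 and 7.41. Neither gene's groups overlapped.

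Some of the largest differences were not called. AT3G57460, AT4G08780, AT2G44400 and AT4G32630 stood at -2.48 to -2.34, with adjusted p-values in limma of 0.0667 for AT4G08780 to 0.18 for AT3G57460. MSRB8, a methionine sulfoxide reductase gene, stood at -2.16 ± 0.58 (0.208). Prx37 (AT4G08770), a class III peroxidase gene from a cluster of near-identical copies, stood at -2.03 ± 0.38 (0.0743), and its probes may also read its neighbours. The next locus number is AT4G08780, given above, so these values may not be separate, which was not tested.

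The genes called higher in bes1-1 were only 2, and both were dim. AT4G29570 measured 2.11, 3.23 and 3.35 in WT and 3.53, 4.97 and 4.11 in bes1-1. It rose by 1.30 ± 0.18 (limma, adjusted p = 0.019), was not called without the block (adjusted p = 1) and had a WT mean of 2.90 below the lower quartile of 3.81. CYP71B16, a cytochrome P450 gene, measured 2.68, 3.39 and 3.14 in WT and 3.53, 4.37 and 3.79 in bes1-1 and rose by 0.83 ± 0.12 (0.0215) from a WT mean that was likewise below the quartile. The groups of both genes did not overlap, but values this close to the floor leave the size of the rise uncertain. The 12 largest positive differences ran from 0.91 to 1.51, and 10 of these 12 genes were below the lower quartile in WT, against 0 of the 12 largest negative ones. AT1G19320 had the highest value, at 1.51 ± 0.29 (0.0781), with both groups below the quartile. EXP26, an expansin gene, stood at 1.00. The exceptions were AT1G12070, which was 5.67, 6.40 and 6.39 in WT and 6.81, 7.12 and 7.26 in bes1-1 (0.91 ± 0.28; 0.282), and AT2G34210, listed as the transcription elongation factor gene SPT5-1 (1.10 ± 0.33; 0.268).

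A pair of probe sets with no gene name gave the largest positive differences of the array, and are given by their numbers as chosen after their values were seen. Probe set 13545469 stood at 5.06, 5.35 and 5.65 in WT and at 10.10, 10.71 and 10.37 in bes1-1, and rose by 5.04 ± 0.16 (limma, adjusted p = 1.67e-08). Probe set 13545557 rose by 5.04 ± 0.21 (1.41e-07). In bes1-3 the same probe sets were intermediate, at 7.01, 7.20 and 7.50 for the first. They were called higher in bes1-1 at 72 h too, by 5.10 and 5.28. The lowest unnamed probe set was 13412564, with 10.52, 10.87 and 11.25 in WT against 4.87, 5.70 and 6.10 in bes1-1 (-5.32 ± 0.45; 0.000378).

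Brassinosteroid genes themselves gave little to read. BRL1, a brassinosteroid receptor gene, was the only measured member of 31 loci of synthesis and signalling and stood at 0.31 ± 0.26 (limma, adjusted p = 0.716). EXPA8, an expansin gene induced by brassinosteroid, was 5.42, 6.62 and 6.93 in WT and 6.51, 6.28 and 8.26 in bes1-1. The groups overlapped and 0.69 ± 0.39 was not called (0.559). Among 32 expansin and xyloglucan endotransglucosylase genes 0 were called by limma, where 0.107% of all probe sets were. At an unadjusted p below 0.05, 4 of them were higher and 2 lower, where 4.5% of all probe sets were higher and 6.24% lower.

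Most other gene groups showed no called member. Over all probe sets 0.107% were called, so lists of this size were likely to hold no call. At an unadjusted p below 0.05, 6.24% of all probe sets were lower and 4.5% higher, and the counts below are to be read beside these shares. None of 15 nuclear photosynthesis genes and none of 63 plastid-encoded genes was called by limma, and 0 in either list had an unadjusted p below 0.05. The same was true of 10 autophagy genes, 15 glutathione transferase genes and 14 SWEET sugar transporter genes. Of 12 defence genes 0 were called and 3 were lower at an unadjusted p below 0.05: the transcription factor genes WRKY6 (-1.13 ± 0.27; adjusted p = 0.171) and WRKY41 (-0.71), and the chitinase gene CHI (AT2G43570; -1.06). UDP-glycosyltransferase genes had 5 of 51 and glucosinolate and beta-glucosidase genes 5 of 27 lower at that threshold, with none higher and none called; BGLU28, a beta-glucosidase gene, was 6.15, 5.48 and 5.45 in WT and 4.09, 4.30 and 5.10 in bes1-1 (-1.20 ± 0.43; 0.357). Of 5 nutrient starvation genes 0 were called by limma and 2 were higher at an unadjusted p below 0.05, ZIP6 at 0.33 and BHLH101 at 0.47, with a list median of 0.42. The 6 reference genes had a median of 0.02 and 0 at an unadjusted p below 0.05. A p that misses the threshold does not show that these genes were equal in both genotypes.

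The 0 h arrays of bes1-3 show whether the differences also separated the alleles. The limma fit called 301 probe sets (0.784%) between the mutants, 104 (0.271%) higher in bes1-1 and 197 lower; scaled to reference genes the split was 62 and 305. FAMT was 4.20 ± 0.37 log2 units lower in bes1-1 than in bes1-3, a difference of -4.20 (adjusted p = 0.000442). The corresponding differences were -2.83 for JRG21 (0.00251), -2.62 for CCR2 (0.00113), -1.67 for AT5G11330 (5.14e-06) and -1.47 for PDC2 (0.00742). DFR, not called against WT, was called against bes1-3 at -3.36 (0.0245). AT1G73325 was higher in bes1-3 than in WT by 1.31, not called (0.218), and differed by -3.16 between the alleles (5.74e-05). CYP71B16 did not pass this test (0.33; 0.213). In bes1-3 CYP71B16 also stood above WT, by 0.67, 0.39 and 0.44 in replicates 1, 2 and 3, and was not called (limma, adjusted p = 0.559). Of the low-oxygen list 11 of 25 were called lower in bes1-1 than in bes1-3, where 0.513% of all probe sets were; the 11 included PDC2, AlaAT1, AT5G66985 and AT1G10140. Between bes1-3 and WT, limma called 6 probe sets (0.0156%), none of them a named gene of the 18; FAMT stood at 0.01, JRG21 at 0.52 and the low-oxygen list at a median of 0.09, with 0 called and 0 at an unadjusted p below 0.05, where 2.69% of all probe sets were higher and 2.52% lower. These comparisons share arrays with that of bes1-1 and WT.

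After 72 h of culture, on separate arrays, most of the probe sets called before culture were not called. At 72 h limma called 5163 probe sets (13.4%) between bes1-1 and WT, and 10 of the 41 were among them, 6 with the same sign, which is 24.4% of the calls at 0 h and 0.194% of those at 72 h. AT5G11330 kept its difference, with 8.68, 9.54 and 9.42 in WT and 6.93, 7.83 and 7.80 in bes1-1 at 72 h (-1.69 ± 0.09; adjusted p = 1.12e-06). JRG21 was also lower at 72 h (-1.72 ± 0.32; 0.0039), as were AT2G39420 (-1.25; 0.00768) and AT4G32480 (-0.63; 0.0461). FAMT measured 3.03, 3.71 and 3.15 in WT and 3.32, 2.96 and 4.27 in bes1-1 at 72 h. Both means lay below the lower quartile, so a difference of FAMT was not measurable there.

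The change of the difference between the times was tested as an interaction, in which 3199 probe sets (8.33%) were called, 1558 (4.06%) higher and 1641 (4.27%) lower; median centring of the arrays moved the median of all probe sets from 0.09 to -0.10 and gave 552 and 2159. Of the 41 probe sets 31 were called in it, a count that their choice favours, since they were picked for a large difference on the same 0 h arrays that enter the interaction. For 5 of the 18 called genes, FAMT among them, both 72 h means lay below the lower quartile, so the size of their change is not given. The interaction was 1.97 ± 0.37 for CCR2 (limma, adjusted p = 0.00813) and 1.36 ± 0.27 for PDC2 (0.0106). It was 4.28 ± 0.79 for DFR (0.00746). For AT5G11330 it was -0.13 ± 0.13 (0.594) and for JRG21 0.60 ± 0.45 (0.441), and neither was called. In the low-oxygen list, which was drawn up with the 0 h differences known, 10 of 25 were called higher in the interaction and 0 lower; 2 of the 10 had both 72 h means below the lower quartile. The mean level of that list had come down to 5.96 to 6.02 on the WT arrays and 5.48 to 6.28 on the bes1-1 arrays at 72 h, which overlapped. AT3G03270 (-1.23; 0.0167) and AT1G74940 (-0.86; 0.0186) were its only members called between the genotypes at 72 h, where 6.3% of all probe sets were called lower.

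**Figure D5:**
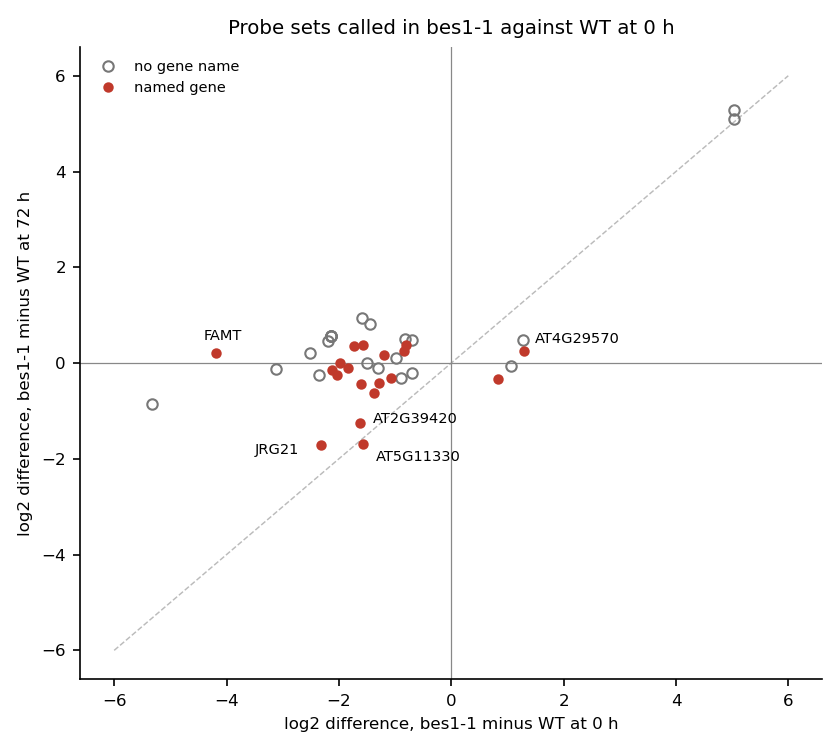
Each point is 1 of the 41 probe sets called at 0 h, with its log2 difference of bes1-1 minus WT at 0 h on the horizontal and at 72 h on the vertical axis; the dashed line marks equal differences. AT5G11330, JRG21, AT2G39420 and 2 unnamed probe sets at the upper right lie near the line, and FAMT lies near 0 at 72 h.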

How the data were processed

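RNA from cotyledons was labelled with biotin and hybridised to Affymetrix arrays. For each array the authors deposited a value for every probe set, read here as a log2 signal because array lower quartiles were 3.14 to 4.14 and array maxima 14.0 to 14.2. The submitters' processing notes name Affymetrix Expression Console; its version, background correction and normalization were not given in the sources used here. Precision is limited by the number of arrays.

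Probe sets were named through the platform annotation and RefSeq's TAIR10.1 gene table: of 38408, 16722 had 1 gene, 759 several and 20927 none; 16670 matched a locus. For a locus with several probe sets (145 loci) the brightest was used. No coordinates are given, since the files name no build.

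Differences were fitted with limma 3.58.1 (R 4.3.3, lmFit and eBayes) on all 18 arrays, with 6 group means and the replicate number as a block (10 residual degrees of freedom) and Benjamini-Hochberg adjustment over all probe sets; a call is an adjusted p below 0.05. Deviations from the group means correlated between same-numbered WT and bes1-1 arrays at 0.498, 0.0106 and 0.0925. Crossed arrays of replicates 2 and 3 correlated more, at 0.303 for WT 3 with bes1-1 2 and 0.235 for WT 2 with bes1-1 3. The numbers were thus not shown to pair samples, and the block serves to take up the scale of replicate 1. The fit was also run on data simulated from the same blocked model with independent normal errors. That run could not test the block or the dependence on single arrays. Figures were drawn with matplotlib 3.10.9.

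The members and 48 gene lists were chosen with earlier results of these data known, and the low-oxygen and plastid-encoded lists were added after the values were seen; 10 lists had no measured member. After the values were seen, 17 entries that a symbol pattern had caught from other gene families were taken out of the lists. Named genes are all those called, the 12 largest differences each way with an unadjusted p below 0.01 and 1 sign in all replicates, up to 3 per list by p, and FAMT, JRG21, DFR and PDF1.2. Lists are given by counts and medians, without a test. "Below the lower quartile" sets a group mean against the mean lower quartile of its arrays. Alternatives were other normalizations, filters, variance models, sets of arrays and single arrays or replicates left out.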

Additional observations from a re-analysis of the deposited data

Results flagged for a closer look

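The difference between bes1-1 and WT changed between 0 h and 72 h for 12 of the 18 called genes, by the interaction test in limma, in which 8.33% of all probe sets were called. The genes were chosen for a large difference on the 0 h arrays that enter this test, which favours a smaller difference at 72 h, so the count is a description. In 5 of the 12, FAMT, AT4G26460, AT4G24110, CYP71B16 and AT4G29570, both 72 h means lay below the lower quartile and the change has no measured size. In the other 7 the value, 72 h less 0 h on the log2 scale, was 1.97 for CCR2, 1.79 for AT1G24580, 1.73 for AT1G73325, 1.95 for AT3G51450, 0.87 for AT1G06620, 1.36 for PDC2 and 1.09 for AT1G66620, with adjusted p-values from 0.00496 for AT3G51450 to 0.0425 for AT1G06620. In the low-oxygen list the interaction was called for 10 of 25 genes, all higher, where 4.06% of all probe sets were called higher.

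The effect at 0 h differed between the alleles, by the test of bes1-1 against bes1-3, for 17 of the 18 genes. The difference was -4.20 for FAMT, -2.83 for JRG21, -2.62 for CCR2, -2.19 for AT1G24580, -1.72 for AT4G26460, -3.16 for AT1G73325, -1.83 for AT4G24110, -1.74 for AT2G39420, -1.79 for AT2G29870 and -1.60 for AT3G51450. It was -1.67 for AT5G11330, -1.59 for AT4G32480, -1.44 for AT1G06620, -1.47 for PDC2, -1.22 for AT1G03610, -0.64 for AT1G66620 and 1.25 for AT4G29570. Adjusted p-values ran from 5.14e-06 for AT5G11330 to 0.0496 for AT1G66620. In the low-oxygen list 11 of 25 genes were called, all lower in bes1-1, where 0.513% of all probe sets were called lower. This test uses the bes1-1 arrays that chose the genes.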

How the results depend on the processing

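The 18 called genes, DFR and PDF1.2 kept their direction under the 19 alternatives. The called genes had been picked for clear differences on these arrays, with 1 sign in all replicates. Keeping their direction was favoured by that choice and does not show that they withstand the processing. Of the 164 other genes followed, none of them called, 35 changed sign under at least 1 alternative. Those of the low-oxygen list were AT2G15880 (-1.14 to 0.27) and AT1G19530 (-0.13 to 0.28). The number of calls in bes1-1 against WT at 0 h did not hold near 41. Without the replicate block it was 8, all among the 41; the blocked and unblocked fits differ because replicate 1 lies lower, and pairing of same-numbered samples was not shown. Without the block, 27 were called between bes1-1 and bes1-3, 3 between bes1-3 and WT and 20 in the interaction. Median centring gave 22 and 198 for bes1-1 against WT and against bes1-3. Dim probe sets left out gave 73 and a trended, robust variance 82. With only the 0 h arrays 4 were called against WT, 6 against bes1-3 and 0 (limma; 1635 at an unadjusted p below 0.05) for bes1-3 against WT. With only the 6 arrays compared each of these gave 0, with 2477, 4568 and 2038 at an unadjusted p below 0.05.

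With 1 array or 1 replicate number left out, calls in bes1-1 against WT ranged from 4 (without replicate 3) to 113 (without WT replicate 2), and were 11 without replicate 1, 5 without replicate 2, 27 without bes1-1 replicate 1 and 6 without WT replicate 1 or 3. Against bes1-3 they ranged from 9 to 188, and every such omission moved the count by over 1.5 times; for bes1-3 against WT they ranged from 0 (1646 and 2560 at an unadjusted p below 0.05 without replicates 1 and 3) to 6, with 2 without replicate 2 and 3 each when WT replicate 1, bes1-3 replicate 1 or WT replicate 2 was left out; and in the interaction from 263 (without replicate 3) to 4384, with 441 without replicate 1, 674 without replicate 2, 1792 without bes1-1 replicate 1, 2132 without WT replicate 1 and 1470 without WT replicate 3 at 0 h, and 2113 and 2123 without bes1-1 replicates 1 and 2 and 1634 and 1833 without WT replicates 2 and 3 at 72 h. For 20 named genes, 378 values under the alternatives kept their direction, 194 their side of the threshold, 183 lost a call and 1 gained one (DFR). Fewer arrays leave fewer residual degrees of freedom; other causes were not tested. Signals near the lower quartile limit the size of differences in JRG21, AT4G29570 and CYP71B16.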
